A study of Bos taurus with 8 samples.

Results

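The endothelial cells of cultured bovine muscle fell into 2 types, vascular endothelial cells of blood vessels (VECs) and lymphatic endothelial cells (LECs), and the sections below compare them within the same animals. They are the cells of the passage 0 (P0) library whose deposited type label was VECs or LECs, 831 VECs and 168 LECs, or 999 of the 9591 cells of P0 and of the 36129 cells of the series. Raw unique molecular identifiers (UMIs, one per captured transcript) were summed per gene, type and donor animal where a donor had at least 10 cells of a type. Donors 1, 2, 4, 6, 7, 8 and 9 had such sums of both types, with 54 to 218 VECs and 10 to 33 LECs each, 715 VECs and 157 LECs in all. VECs made up 80.4% of the endothelial cells of these donors on average (± 7.98, SD, n = 7), from 69.2% to 88.3%. The labels of P0 name satellite cells, FAPs and unsorted cells. The paper describes the cells of this timepoint as unsorted, and they were treated as unsorted here. Donors 5 and 10 had 6 and 5 LECs and were left out of the comparison.

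The study followed semitendinosus muscle cells of Belgian Blue cattle from the collagenase digest of the tissue (Muscle) through P0, which is the adherent cells after 72 h of culture on fibronectin without serum, to passages 2, 5 and 8. The donors were pooled at each timepoint and separated afterwards by genotype with demuxlet. The labels list 2 runs of P0 and 1 of Muscle. The P0 cells used here were matched to run 1, and run 2 was not used. Each timepoint compared here is thus 1 droplet library, so timepoint and library cannot be told apart. Of the 7 animals compared here, donors 2, 4 and 7 were calves and donors 1, 6, 8 and 9 adults. No cell was labelled VECs or LECs at passages 2, 5 or 8. Muscle held 1166 VECs and 81 LECs, with both types at 10 or more cells in donors 4, 7, 8 and 10.

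Blood and lymphatic endothelium share an ancestry and a basic programme. Lymphatic endothelium arises from venous endothelium under the transcription factor PROX1 and, in development, depends on the receptor VEGFR-3 (FLT4) and its ligand VEGF-C; it lines thin vessels that drain fluid, lipids and leukocytes. Blood vascular endothelium carries the receptor VEGFR-1 (FLT1), the clotting factor carrier VWF and, in arteries, strong Notch signalling, and rests on a continuous basement membrane.

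The type labels were deposited by the authors and rest on the expression of these same cells. A gene that helped to set the labels had to differ between the types, so the tests are not independent of the labels. This is plainest for identity genes, and which other genes helped is not known here. Calls and p-values for all genes are therefore given as a description of how far apart the types lay. Genes without a UMI in 1 type were kept for testing through the counts of the other type alone. Except where an exact test is named, p-values below are from edgeR's quasi-likelihood F test on the sums, with the donor as a block and Benjamini-Hochberg adjustment over all genes tested in that comparison, 5457 at P0. Genes count as called here when the adjusted p was under 0.05 and the log2 fold change beyond 1 either way, and fold changes are VECs minus LECs. Levels are CPM per donor, the UMIs of a gene scaled to a common library total. Mean FAP levels of single genes, and percentages of them, are on a separate scale fitted to all types of P0. That scale includes the VECs of donors 5 and 10.

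At P0 VECs held more transcripts and more genes per cell than LECs. The donor medians lay between 9556 and 16487 UMIs in VECs, with a median of 13102, and between 6674 and 13831 in LECs, with a median of 8202. The mean difference was 3564 UMIs ± 3661 (SD, n = 7), with VECs higher in 6 of 7 donors (exact two-sided sign-flip test, p = 0.0469, adjusted over 4 measures p = 0.0469; the smallest p that 7 donors allow is 0.0156). Without donor 1, 2, 4, 6, 8 or 9 this difference, between 2591 and 4147 UMIs, no longer passed 0.05. VECs had more genes per cell in 7 of 7 donors, by 598 on average ± 483 (exact p = 0.0156, adjusted p = 0.0208). The mitochondrial share of UMIs was lower in VECs in 7 of 7 donors, with medians over donors of 1.45% against 1.93% (exact p = 0.0156, adjusted p = 0.0208). LEC sums held 80694 to 394876 UMIs and VEC sums 682049 to 3179089, so a level in 1 LEC sum is coarser, and 1 UMI was worth about 2.53 to 12.4 CPM there.

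Markers of the other cell types had UMIs in both. The 16 markers of fibro-adipogenic progenitors (FAPs, the fibroblast-like cells of muscle) summed to between 527 and 1027 CPM in VECs and between 537 and 2113 CPM in LECs, against 5695 to 9721 CPM in FAPs, so the highest LEC donor came nearest to the FAPs. Of the 16, 0 were without a UMI in VECs and 2 in LECs, and their per-cell share of UMIs was higher in LECs in 7 of 7 donors (exact p = 0.0156, adjusted p = 0.0208). The 11 satellite cell markers summed to at most 20.5 CPM in VECs and 65.8 CPM in LECs, with 2 and 4 of them at 0, against 165 to 367 CPM in satellite cells. The 12 smooth muscle and mesenchymal markers, among them MCAM which endothelium also expresses, summed to 94.5 to 195.6 CPM in VECs and 20.1 to 91.2 CPM in LECs, against at least 1806 CPM in the smooth muscle and mesenchymal cells. Macrophage markers reached at most 233 and 259 CPM, against at least 12801 CPM in the monocytes and macrophages. The 8 glial markers summed to at most 49.8 CPM in VECs and 39.97 CPM in LECs, with 2 and 6 of them at 0. The part of these transcripts in any difference below was not tested. Values given without FAP-rich cells leave out, at P0, only cells with at least 0.335% of UMIs from the FAP markers. That limit is the 10th percentile of the labelled FAPs. FAP transcripts spread over the remaining cells stay in those sums.

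Of the 5457 genes, 520 were called between the types (9.53%), 299 of them higher in VECs (5.48% of all genes tested) and 221 higher in LECs (4.05%). All 7 donors differed in the same direction at 474 of the 520, and the same share over all 5457 genes is not given here. With the VEC sum of each donor thinned to the UMIs of its LEC sum, 304 of 3366 genes were called, 289 of them among the 520. The median log2 fold change over all genes tested was -0.02. These shares are the background against which each group of genes is read below.

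The lymphatic identity genes lay on the LEC side. Of 34 genes of this group 19 had enough counts to be tested, and 14 of the 19 were called higher in LECs and 0 higher in VECs, with a median log2 fold change of -2.77. PROX1, the master regulator of lymphatic fate, lay between 38.1 and 74.0 CPM in LECs (median 44.3) and between 0 and 2.08 CPM in VECs (median 0; log2FC -6.49 ± 0.41 SE, adjusted p = 3.33e-13). FLT4, the VEGF-C receptor, lay between 123 and 289 CPM in LECs (median 148) and between 0 and 8.62 CPM in VECs (median 2.13; log2FC -5.65 ± 0.29 SE, adjusted p = 6.58e-12). MMRN1, a multimerin found in lymphatic endothelium and platelets, reached 946 to 1790.2 CPM in LECs (median 1346) and 0.563 to 13.1 CPM in VECs (median 3.30; log2FC -7.91 ± 0.33 SE). No donor's VECs reached the level of any donor's LECs for these 3 genes, a separation found at 10.3% of all genes tested.

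PDPN (podoplanin, the lymphatic surface mucin that binds platelet CLEC-2) had UMIs in the VEC sums of all 7 donors too. It lay between 351 and 774 CPM in LECs (median 431) and between 19.1 and 47.8 CPM in VECs (median 22.4; log2FC -4.11 ± 0.14 SE, adjusted p = 1.12e-18), and FAPs averaged 152 CPM. Of VECs thinned to 5000 UMIs, 10.5% had a PDPN UMI and 8.85% a UMI of the FAP marker PDGFRA. The part of FAP transcripts in the VEC level of PDPN was not tested. The orphan nuclear receptors NR2F1 and NR2F2, of which NR2F2 also marks veins, were higher in LECs with log2 fold changes of -4.94 and -2.77. NR2F2 ranged from 20.2 to 88.3 CPM in VECs and from 178 to 386 CPM in LECs, without overlap. STAB1, a scavenger receptor, and GATA2, a transcription factor of lymphatic valves, were called with log2 fold changes of -2.46 and -1.04. GATA2 was lower in VECs in 5 of 7 donors, and its value was under the fold limit without donor 2, 4 or 7 (-0.88, -0.98 and -0.996), with no filter (-0.93) and with only the donors of 20 or more cells of both types (-0.87).

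The classical lymphatic markers LYVE1, CCL21 and RELN had too few counts for the test, and nearly all their UMIs were in LECs. LYVE1, the hyaluronan receptor, had 165 UMIs in the LEC sums, present in 7 of 7 donors, and 7 UMIs in the VEC sums. CCL21, the chemokine that draws dendritic cells and T cells into lymphatics, had 261 UMIs in LECs over 7 of 7 donors and 0 in VECs, at least 528-fold higher in LECs with 3 counts taken over the VEC sums. RELN, the secreted glycoprotein reelin, had 55 UMIs in LECs over 7 of 7 donors and 0 in VECs, at least 111-fold higher. The bounds cover counting error only. The median levels over the 7 LEC sums were 98.1 CPM for LYVE1, 91.8 CPM for CCL21 and 29.4 CPM for RELN.

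Among all called genes with a symbol that moved the same way in 7 of 7 donors, the 12 farthest on the LEC side held genes with very few counts in VECs. DTX1, a ubiquitin ligase of the Notch pathway, lay between 30.7 and 90.5 CPM in LECs with 1 UMI in VECs, and SEMA3D, a secreted semaphorin, between 21.6 and 81.1 CPM with 2 UMIs in VECs. GPM6A, a neuronal membrane glycoprotein used as a lymphatic marker, lay between 37.5 and 90.5 CPM in LECs with 3 UMIs in VECs. The ratios for these 3 genes, 553 (95% exact interval 96.7 to 22063), 279 (75.2 to 2341) and 221 (73.5 to 1086), rest on those few VEC counts, and the intervals cover counting error only.

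Beside PROX1, FLT4 and MMRN1, the 12 held 5 further genes described here. S100A1, a calcium-binding protein, ranged from 195 to 439 CPM in LECs (median 279) and from 3.95 to 8.97 CPM in VECs (median 4.50; log2FC -5.87 ± 0.18 SE). PTN, the heparin-binding growth factor pleiotrophin, ranged from 38.8 to 179.7 CPM in LECs and from 0 to 7.66 CPM in VECs (log2FC -5.34 ± 0.35 SE). GDF10, a TGF-beta family ligand, PRKCZ, an atypical protein kinase C, and SPON2, a secreted matrix protein, had log2 fold changes of -6.27, -6.12 and -5.25. GDF10 had 4 UMIs in VECs and 72 in LECs, a ratio of 109 (95% exact interval 40.9 to 412). For all 5 genes the lowest LEC donor lay above the highest VEC donor.

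**Figure D1:**
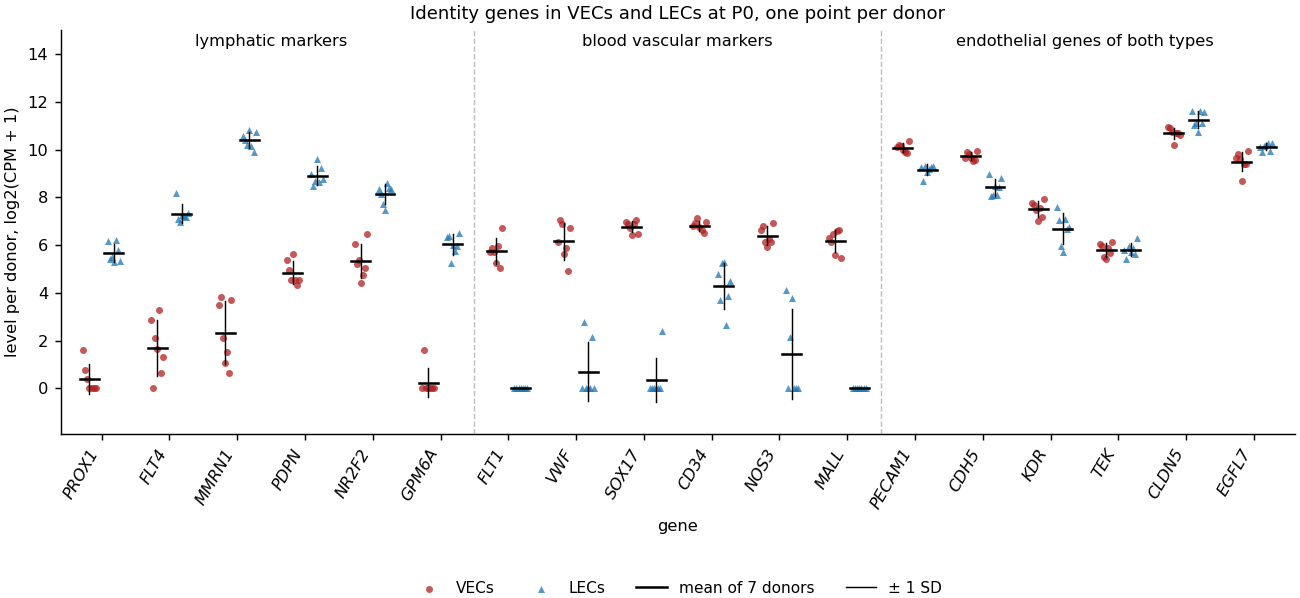
Levels at P0 of 6 lymphatic, 6 blood vascular and 6 shared endothelial genes as log2(CPM + 1), 1 point per donor (7 donors), red circles for VECs and blue triangles for LECs, black bars for the mean and thin lines for 1 SD. The 2 types do not overlap in the first 2 blocks, where FLT1 and MALL are at 0 in each of the 7 LEC sums, while the TEK points of the 2 types overlap.

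The blood vascular identity genes lay on the VEC side. Of 33 genes 23 were tested, 19 were called higher in VECs and 0 higher in LECs, with a median log2 fold change of 3.60. FLT1, the decoy receptor VEGFR-1, lay between 31.5 and 105 CPM in VECs (median 52.0) and had 0 UMIs in the LEC sums of every donor, at least 28.3-fold higher in VECs. VWF, the von Willebrand factor, lay between 29.3 and 131 CPM in VECs (median 68.7) with 2 UMIs in all LEC sums, a ratio of 68.8 (95% exact interval 19.0 to 569). CD34, a sialomucin of capillary endothelium, was detected in every sum, at 88.9 to 138 CPM in VECs (median 110.3) and 5.29 to 38.1 CPM in LECs (median 21.6; log2FC 2.36 ± 0.21 SE, adjusted p = 7.55e-10).

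CD93, TMEM88, PALMD, IGFBP3 and CXCR4, the CXCL12 receptor, were also called higher in VECs, with log2 fold changes of 5.08, 5.25, 4.31, 3.80 and 2.79. RGCC, a regulator of the cell cycle, had a log2 fold change of 5.93 ± 0.36 SE. NOS3, the endothelial nitric oxide synthase, ranged from 59.5 to 121 CPM in VECs and from 0 to 16.2 CPM in LECs (log2FC 4.14 ± 0.38 SE). Of the 4 members not called, EMCN (endomucin, a sialomucin of capillaries and veins) had a log2 fold change of 0.91 ± 0.11 SE with levels of 332 to 460.0 against 149 to 285 CPM, which do not overlap. Its adjusted p of 6.52e-08 passed and its fold did not. PLVAP, the diaphragm protein of fenestrated capillaries, was under the filter with 289 UMIs in VECs and 2 in LECs, a ratio of 23.8 (95% exact interval 6.53 to 197).

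The 12 genes farthest on the VEC side were MALL, FLT1, MAP1LC3C, FAM167B, DACH1, SOX17, EPCAM, MECOM, ARHGDIB, PRND, PGF and CCL1. MALL, a MAL-family membrane proteolipid, lay between 43.4 and 97.3 CPM in VECs with 0 UMIs in LECs, at least 43.2-fold higher, and the autophagy gene MAP1LC3C and the transcription factor DACH1 were at 0 in LECs too, at least 33.5-fold and 19.5-fold higher in VECs. SOX17, the transcription factor of arterial endothelium, lay between 85.0 and 130.0 CPM in VECs (median 116) with 1 UMI in LECs, a ratio of 180.3 (95% exact interval 32.3 to 7129). EPCAM, the adhesion molecule by which epithelia are usually recognised, lay between 92.8 and 167 CPM in VECs (median 136) with 2 UMIs in LECs, and FAPs averaged 0.829 CPM.

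MECOM, a zinc finger transcription factor, and PRND, the prion-like protein doppel, each had 1 UMI in LECs and medians of 62.4 and 67.0 CPM in VECs. FAM167B also had 1 UMI in LECs and a median of 209.7 CPM in VECs. ARHGDIB lay between 244 and 345 CPM in VECs and between 0 and 13.7 CPM in LECs (log2FC 6.27 ± 0.29 SE). CCL1, a chemokine that attracts T cells through CCR8, lay at 576 to 1893 CPM in VECs (median 1129) and 0 to 78.6 CPM in LECs (median 5.29; log2FC 6.01 ± 0.38 SE, adjusted p = 1.06e-05).

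The genes that define endothelium as such were expressed in both types, at levels that often differed. Of 28 tested pan-endothelial genes 5 were called higher in VECs and 3 higher in LECs, against 9.53% of all genes tested in either direction, 20 were not called, and the median log2 fold change was 0.52. TEK, the angiopoietin receptor TIE2, lay between 41.5 and 68.8 CPM in VECs (median 57.5) and between 41.7 and 77.6 CPM in LECs (median 54.1; log2FC -0.0093 ± 0.17 SE, adjusted p = 0.988). KDR, the main VEGF receptor VEGFR-2, lay between 127 and 242 CPM in VECs and between 50.8 and 192 CPM in LECs (log2FC 0.72 ± 0.15 SE, adjusted p = 2.93e-04). PECAM1 (CD31) lay between 921 and 1309 CPM in VECs and between 405 and 645 CPM in LECs (log2FC 0.90 ± 0.09 SE, adjusted p = 4.89e-09). KDR and PECAM1 thus passed the p limit with folds under the limit set for a call, and the PECAM1 levels did not overlap.

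CLDN5, the tight junction claudin of endothelium, and EGFL7, a secreted endothelial protein, were the other way round, with log2 fold changes of -0.58 ± 0.082 SE and -0.60 ± 0.13 SE (adjusted p = 9.05e-06 and 0.00337), and were not called. ERG and SOX18, endothelial transcription factors, had values of 0.51 and 0.67. The called genes were CDH5, ESAM, CLEC14A, SOX7 and ETS1 on the VEC side and CAVIN2, LMO2 and TAL1 on the LEC side. The calls of SOX7 and ETS1 were lost in at least 1 alternative. CLEC14A, a C-type lectin of angiogenic endothelium, lay between 72.6 and 167 CPM in VECs and between 0 and 24.3 CPM in LECs (log2FC 3.85 ± 0.30 SE). CAVIN2, which shapes caveolae, lay between 10.5 and 43.9 CPM in VECs and between 241 and 392 CPM in LECs (log2FC -3.09 ± 0.16 SE). LMO2 and TAL1, partners in a transcription complex of blood and endothelial development, were higher in LECs by log2 values of -1.52 and -1.41, and TAL1 was at 0 in the LECs of 1 donor.

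**Figure D2:**
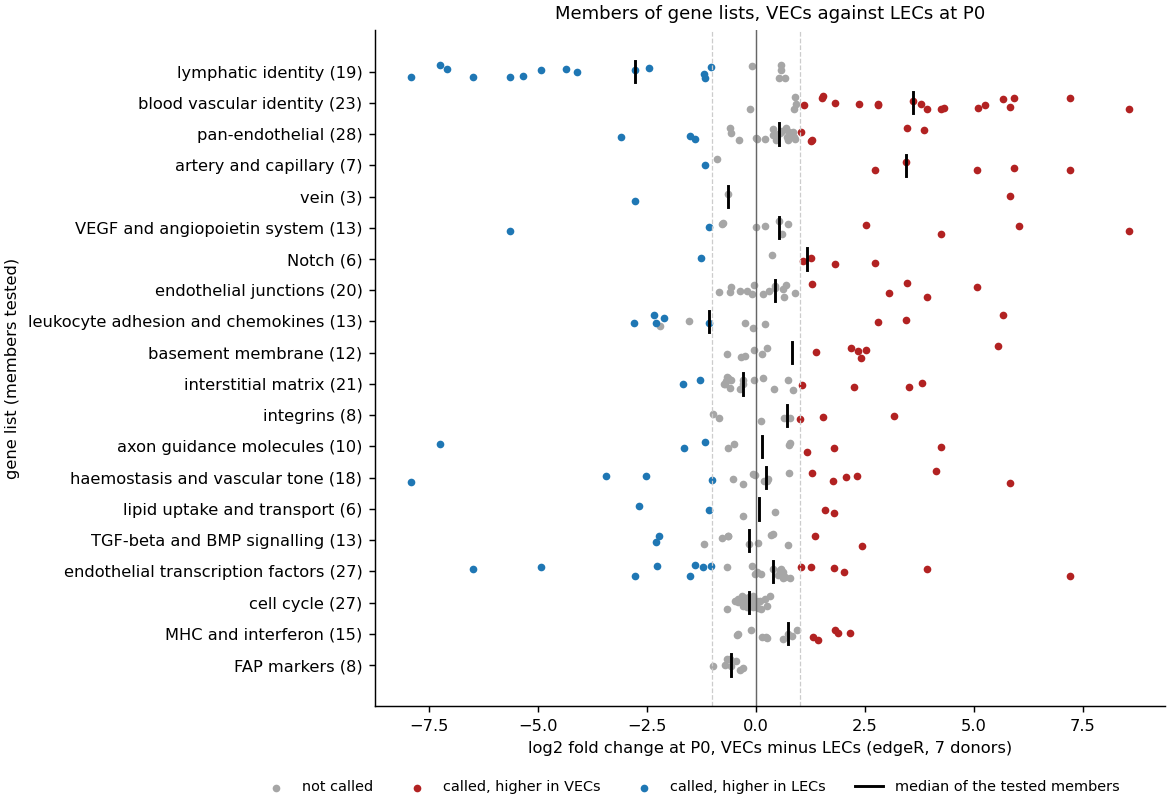
Log2 fold changes (VECs minus LECs, horizontal axis) of the tested members of 20 gene groups at P0, 1 point per gene, red where called higher in VECs, blue where called higher in LECs and grey where not called, with a black bar at the median. Lymphatic and blood vascular identity lie on opposite sides, and the 27 cell cycle genes lie within 0.67 of zero with none called.

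Receptors and ligands of the VEGF family differed between the types. The VEGF and angiopoietin system held 23 genes, of which 13 were tested, 4 called higher in VECs and 2 higher in LECs. Among the receptors, FLT1 had UMIs in the VEC sums alone and FLT4 was higher in LECs (above), KDR and TEK were not called, and NRP1, the co-receptor neuropilin-1, lay between 56.3 and 117 CPM in VECs (median 81.2) and between 0 and 10.2 CPM in LECs (median 0; log2FC 4.24 ± 0.36 SE, adjusted p = 2.03e-10). The ligand VEGFC, which signals through FLT4, was higher in VECs, at 80.1 to 114 CPM (median 95.3) against 10.8 to 35.7 CPM in LECs (median 13.6; log2FC 2.53 ± 0.23 SE, adjusted p = 6.31e-10). PGF, the placental growth factor and ligand of FLT1, lay between 233 and 425 CPM in VECs (median 392) and between 0 and 10.2 CPM in LECs (median 5.41; log2FC 6.02 ± 0.22 SE, adjusted p = 4.91e-18).

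VECs therefore held the higher level of the ligand VEGFC and LECs the higher level of its receptor FLT4, while PGF and its receptor FLT1 were both higher in VECs. ANGPT2, the TIE2 ligand released by activated endothelium, was abundant in both, at 314 to 541 CPM in VECs (median 365) and 152 to 549 CPM in LECs (median 239; log2FC 0.53 ± 0.30 SE, adjusted p = 0.288). ANGPTL4, an inhibitor of lipoprotein lipase, was called higher in LECs at a log2 fold change of -1.07 ± 0.26 SE, and fell under the fold limit in 4 of the alternative analyses.

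Of 17 Notch ligands, receptors and targets 6 were tested, with 4 called higher in VECs and 1 higher in LECs. The Notch pathway ligase DTX1, not in this group, was higher in LECs (above). DLL4, the Notch ligand of arterial and tip cells, lay between 87.2 and 171 CPM in VECs (median 126) and between 5.29 and 47.6 CPM in LECs (median 18.9; log2FC 2.74 ± 0.22 SE). The endothelial receptor NOTCH4 and the ligand JAG1 had log2 fold changes of 1.82 ± 0.30 SE and 1.27 ± 0.19 SE, and neither overlapped between the types. The target HES1 was higher in VECs by 1.09 ± 0.19 SE, and the DNA-binding effector RBPJ was higher in LECs (-1.27 ± 0.18 SE). HES1 fell under the fold limit without the donor block (log2FC 0.92), without donor 8 (0.98) and with equal numbers of cells (0.99). NOTCH1 was under the filter, with 188 UMIs in VECs and 21 in LECs. Arterial and venous markers were called on both sides: of 7 tested genes of arteries and capillaries 5 were called higher in VECs and 1, the netrin receptor UNC5B (-1.16 ± 0.11 SE), higher in LECs, and of 3 tested venous genes VWF was higher in VECs and NR2F2 higher in LECs.

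Endothelial transcription factors were split, with 6 of 27 tested called higher in VECs and 8 higher in LECs. MEOX1 and MEOX2, homeobox factors of which MEOX2 with TCF15 drives fatty acid uptake in capillaries, were higher in VECs with log2 fold changes of 3.93 ± 0.29 SE and 1.78 ± 0.28 SE. TBX3, a T-box factor, was higher in VECs by 2.01 ± 0.34 SE. KLF4, a Krüppel-like factor induced by shear stress, lay between 3.83 and 20.3 CPM in VECs (median 11.7) and between 47.8 and 76.2 CPM in LECs (median 59.5; log2FC -2.28 ± 0.27 SE, adjusted p = 9.86e-08).

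Chemokines were called on both sides. Of 33 genes of leukocyte adhesion and chemokines 13 were tested, 5 called higher in LECs and 3 higher in VECs. CXCL5, a neutrophil chemokine, lay between 1768 and 4723 CPM in LECs (median 3159.6) and between 593 and 1144 CPM in VECs (median 649; log2FC -2.11 ± 0.13 SE, adjusted p = 4.24e-07). CXCL3, another ligand of CXCR2, lay between 441 and 1618 CPM in LECs (median 939.5) and between 144 and 274 CPM in VECs (median 155; log2FC -2.33 ± 0.23 SE, adjusted p = 1.40e-04). CXCL8 (interleukin-8) had medians of 387 CPM in LECs and 89.7 CPM in VECs, and its ranges overlapped (log2FC -2.29 ± 0.41 SE, adjusted p = 0.0069). With only the donors of 20 or more cells of both types the CXCL8 call was lost (log2FC -2.16, adjusted p = 0.0918). The CXCL genes are close paralogs, so their counts are uncertain.

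CCL5, the T cell and monocyte chemokine RANTES, varied widely among donors, from 35.9 to 549.6 CPM in VECs (median 74.3) and from 241 to 3859.7 CPM in LECs (median 666). Within donors LECs were higher in 7 of 7 (log2FC -2.81 ± 0.41 SE, adjusted p = 0.00297). IL6 was higher in LECs by a log2 fold change of -1.09 ± 0.14 SE and fell just under the fold limit when no filter on low counts was used (-0.97). FAPs expressed several of these genes strongly. CXCL5 averaged 7117 CPM in FAPs, CXCL3 599 CPM and IL6 403 CPM. The 8 tested FAP markers reached a median of 10.99% of the FAP level in VECs and 13.4% in LECs, with ranges of 8.12% to 39.1% and 11.96% to 86.7%. CXCL5 reached 10.7% and 43.5% and CXCL3 30.1% and 147%. The 8 include ITGB3, which is also in the integrin group. It lay at 18.7 CPM in the pooled VECs and 37.2 CPM in the pooled LECs, and the part of FAP transcripts in it was not tested. Without the cells richest in FAP transcripts the log2 fold changes were -2.15 for CXCL5, -2.37 for CXCL3 and -1.13 for IL6.

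On the VEC side, CCL14, a chemokine of monocytes, lay between 38.5 and 239.6 CPM in VECs (median 153) and between 0 and 10.6 CPM in LECs (log2FC 5.66 ± 0.34 SE, adjusted p = 1.44e-13). CXCL12, the retention factor for CXCR4-bearing cells, had medians of 74.9 and 3.42 CPM in VECs and LECs (log2FC 3.45 ± 0.45 SE). Donor 2 showed almost no difference, 0.06 on the log2(CPM + 1) scale, against 3.57 to 7.32 in the other donors. TNFSF10, the death ligand TRAIL, lay between 192 and 334 CPM in VECs and between 15.9 and 81.9 CPM in LECs (log2FC 2.81 ± 0.18 SE). CCL2, the monocyte chemokine, was not called (0.20 ± 0.14 SE, adjusted p = 0.349). The adhesion receptors SELE, SELP, VCAM1 and ICAM1 were under the filter.

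**Figure D3:**
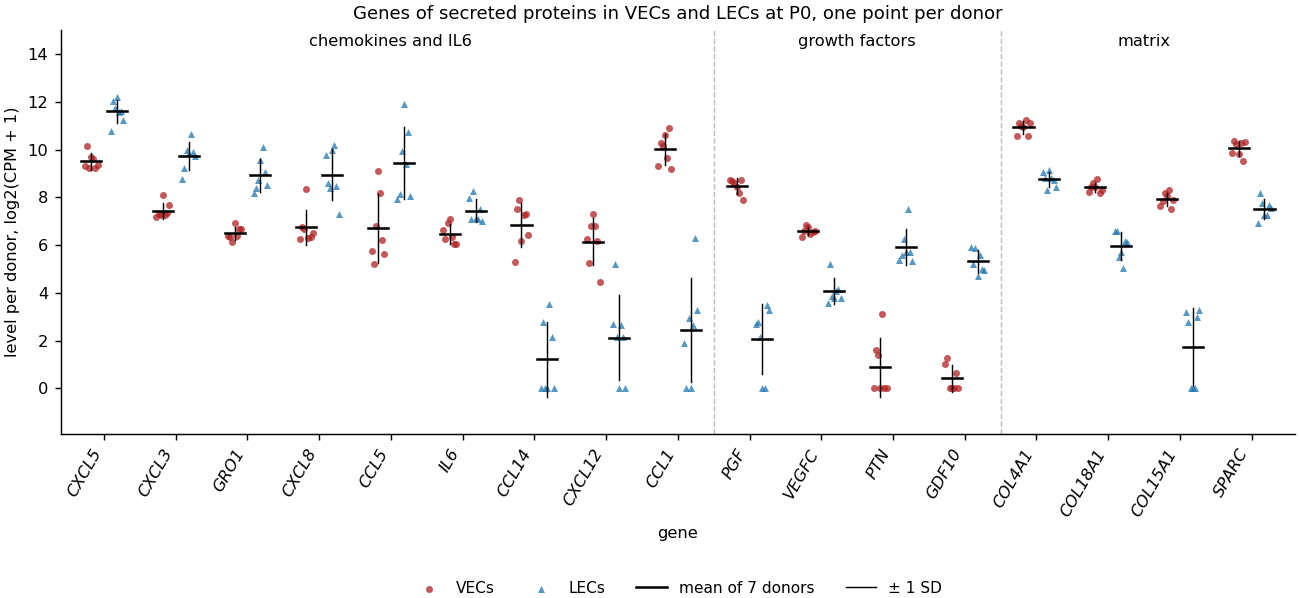
Levels at P0 of genes of secreted proteins as log2(CPM + 1), 1 point per donor (7 donors), red circles for VECs and blue triangles for LECs, black bars for the mean and thin lines for 1 SD. CXCL5, CXCL3, GRO1, PTN and GDF10 are higher in the LECs of all donors, and CCL14, CCL1, PGF, VEGFC and the 4 matrix genes are higher in VECs without overlap.

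Basement membrane collagens were higher in VECs, while laminins were not. Of 22 basement membrane genes 12 were tested, 6 called higher in VECs and 0 higher in LECs. COL4A1, a chain of the network-forming collagen IV, lay between 1504 and 2414 CPM in VECs (median 2058) and between 314 and 559 CPM in LECs (median 444; log2FC 2.18 ± 0.16 SE, adjusted p = 6.70e-06), and its partner COL4A2 had a log2 fold change of 2.40 ± 0.29 SE. COL15A1 and COL18A1, multiplexin collagens, had values of 5.54 ± 0.27 SE and 2.33 ± 0.18 SE, and SPARC, which binds collagen IV, 2.52 ± 0.12 SE. The laminin chains LAMA4, LAMB1, LAMB2 and LAMC1 had log2 fold changes of -0.034, -0.34, 0.14 and -0.25, and none was called.

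Among 21 tested genes of the interstitial matrix, 4 were called higher in VECs and 2 higher in LECs. TNC (tenascin C) and COL12A1, proteins of remodelling matrix, had log2 fold changes of 3.52 ± 0.27 SE and 3.81 ± 0.27 SE. The matricellular genes CCN2 and CCN1, targets of YAP, had values of 2.25 ± 0.23 SE and 1.05 ± 0.16 SE, and the CCN1 value was under 1 without donor 7 or donor 8 (0.91 and 0.94). ELN (elastin) and the metalloproteinase inhibitor TIMP2 were higher in LECs, by -1.67 ± 0.25 SE and -1.29 ± 0.13 SE. FAPs averaged 272 CPM of TIMP2 on the scale of all types, against medians of 91.8 CPM in VECs and 241 CPM in LECs on that of the 2 types. The collagen-binding integrins ITGA1 and ITGA2 were higher in VECs (3.16 ± 0.32 SE and 1.54 ± 0.33 SE), and ITGA5, the fibronectin receptor chain, lay at the fold limit (1.00 ± 0.12 SE). These were 3 of 8 integrins tested, and the laminin receptor chain ITGA6 (0.64) and the shared chain ITGB1 (0.79) were not called.

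Of 20 tested junction genes 5 were called higher in VECs and 0 higher in LECs. ESAM, JAM2 and JAM3, immunoglobulin-like junction molecules, had log2 fold changes of 3.48 ± 0.32 SE, 3.93 ± 0.39 SE and 3.06 ± 0.34 SE. ESAM lay between 186 and 301 CPM in VECs (median 226) and between 0 and 56.0 CPM in LECs (median 15.9). CDH5 (VE-cadherin) was present in both, at 740.2 to 969 CPM in VECs and 268 to 500.0 CPM in LECs (log2FC 1.28 ± 0.11 SE). GJA4, the connexin 37 of arteries and lymphatic valves, lay between 41.5 and 174 CPM in VECs and had 4 UMIs in all LEC sums (log2FC 5.07 ± 0.39 SE). F11R (JAM-A) did not overlap between the types and was not called (0.68 ± 0.16 SE), and the plaque genes TJP1, CTNNA1 and CTNNB1 had values of 0.30, -0.083 and -0.047.

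Guidance molecules went both ways, with 3 of 10 tested called on each side. The LEC side held SEMA3D, SEMA6A (-1.65 ± 0.31 SE) and UNC5B, and the VEC side NRP1, the semaphorin SEMA3F (1.18 ± 0.17 SE) and the semaphorin receptor PLXNA2 (1.80 ± 0.22 SE).

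Coagulation genes divided between the types. Of 18 tested genes of haemostasis and vascular tone, 6 were called higher in VECs and 4 higher in LECs. F8, coagulation factor VIII, lay between 40.9 and 95.3 CPM in LECs (median 76.2) and between 2.25 and 15.2 CPM in VECs (median 6.24; log2FC -3.44 ± 0.25 SE, adjusted p = 1.12e-11), whereas its carrier VWF was higher in VECs (above). PROCR, the protein C receptor, lay between 131 and 371 CPM in LECs and between 34.5 and 53.8 CPM in VECs (log2FC -2.52 ± 0.13 SE), and PROS1, the cofactor protein S, was higher in VECs (2.07 ± 0.34 SE). PLAU, the urokinase plasminogen activator, lay between 226 and 465 CPM in VECs and between 10.6 and 159.5 CPM in LECs (log2FC 2.31 ± 0.37 SE), and its receptor PLAUR was higher in VECs too (1.29 ± 0.36 SE, adjusted p = 0.0446). The PLAUR levels overlapped, and the call was lost without any one of donors 2, 4, 6, 7 and 8 (log2FC 1.14 to 1.29), without FAP-rich cells (1.16, adjusted p = 0.0871), and in 4 further alternatives (0.81 to 1.399). PTGIS, the prostacyclin synthase, had a log2 fold change of 1.77 ± 0.36 SE.

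Lipid genes were few: of 6 tested, VLDLR, a lipoprotein receptor, and MEOX2 were called higher in VECs and FABP5 and ANGPTL4 higher in LECs. FABP5, a fatty acid binding protein, lay between 267 and 1469.9 CPM in LECs (median 936) and between 73.7 and 211 CPM in VECs (median 137; log2FC -2.68 ± 0.39 SE, adjusted p = 0.00283). FAPs averaged 574 CPM of FABP5, and without FAP-rich cells the log2 fold change was -2.88. In TGF-beta and BMP signalling, 2 of 13 tested genes were called on each side: the inhibitor of differentiation ID3 (2.44 ± 0.30 SE) and the BMP9 receptor ACVRL1 (1.36 ± 0.26 SE) were higher in VECs, and ID2 (-2.22 ± 0.16 SE) and the latent TGF-beta binding protein LTBP1 (-2.29 ± 0.65 SE, adjusted p = 0.0477) higher in LECs. The paralogs ID2 and ID3 thus lay on opposite sides, while the LTBP1 call was lost without any one of donors 1, 2, 6, 7 and 9 (log2FC -2.43 to -1.82) and without FAP-rich cells, where the fold was no smaller (-2.41, adjusted p = 0.0725).

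MHC class I genes were higher in VECs. Of 15 tested genes of antigen presentation and interferon response 5 were called higher in VECs and 0 higher in LECs. B2M, the light chain of MHC class I, lay between 5255 and 8664 CPM in VECs (median 6592) and between 1316 and 2073 CPM in LECs (median 1822; log2FC 1.87 ± 0.067 SE, adjusted p = 2.63e-18). The peptide transporter TAP1 and the immunoproteasome subunit PSMB9 had log2 fold changes of 2.16 ± 0.20 SE and 1.32 ± 0.12 SE. The heavy chain genes BOLA and JSP.1 were higher in VECs as well (1.43 and 1.81), but are near-identical, variable between animals and uncertain, with BOLA from 812 to 6478 CPM among the VECs of 7 donors. The interferon targets ISG15, IFI6 and MX1 were not called (-0.43, 0.63 and 0.25).

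Proliferation genes did not separate the types. Of 27 tested cell cycle genes 0 were called by edgeR in either direction, with a median log2 fold change of -0.16 and values from -0.67 to 0.32. MKI67, the marker of cycling cells, had 0.32 ± 0.44 SE (adjusted p = 0.687), and 1 of the 27 had an unadjusted p under 0.05, against 33.6% of all genes tested. DESeq2 called 0 of the 27 it tested.

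The same contrast was made between the VECs and LECs of Muscle, in the 4 donors with 10 or more cells of both. There 558 of 3071 genes were called (18.2%), 328 higher in VECs (10.7%) and 230 higher in LECs (7.49%). The 2 fits were normalised separately, and the sums of 3 donors come from the same animals in both. Depth per cell lay the other way in Muscle. In donors 4, 7, 8 and 10 the median UMIs per cell were 2623, 3233, 2748 and 3080 in VECs. In LECs they were 4192, 4829, 4768 and 5827, and the median genes per cell were higher in LECs of these donors too. The part of depth in any change between the timepoints was not tested. Among the 2867 genes tested at both timepoints, 296 were called at P0 and 447 in Muscle. Of these, 172 were called in the same direction in both, 99 higher in VECs and 73 higher in LECs, which is 58.1% of the calls at P0 and 38.5% of those in Muscle. A further 16 genes were called in both in opposite directions.

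The lymphatic and blood vascular identity genes lay on the same side in tissue. The Muscle labels rest on expression too, and the paper named the P0 clusters by comparison with Muscle. Genes that helped to set the labels had to lie on the same side in both. Neither this result nor the shared calls above are therefore independent of the labels. In Muscle 20 of 24 tested lymphatic genes were called higher in LECs and 23 of 25 blood vascular genes higher in VECs. PROX1 had a log2 fold change of -5.72 ± 0.43 SE there, FLT4 -6.01 ± 0.39 SE and VWF 2.66 ± 0.39 SE. FLT1, without a UMI in LECs at P0, averaged 73.0 CPM ± 113 (SD, n = 4) in the LECs of Muscle against 561 CPM ± 87.0 in VECs (log2FC 3.08 ± 0.54 SE). Of 18 tested MHC and interferon genes 16 were called higher in VECs in Muscle. B2M had a log2 fold change of 3.13 ± 0.24 SE there. Its difference from the P0 contrast, in the 3 donors with both types at both timepoints, was not called (-1.02 ± 0.36 SE, adjusted p = 0.158), and was called without donor 4 (-1.55) or the donor block (-1.34). Of the chemokines called higher in LECs at P0, CXCL5, CXCL8 and CCL5 had too few counts to be tested in Muscle.

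**Figure D4:**
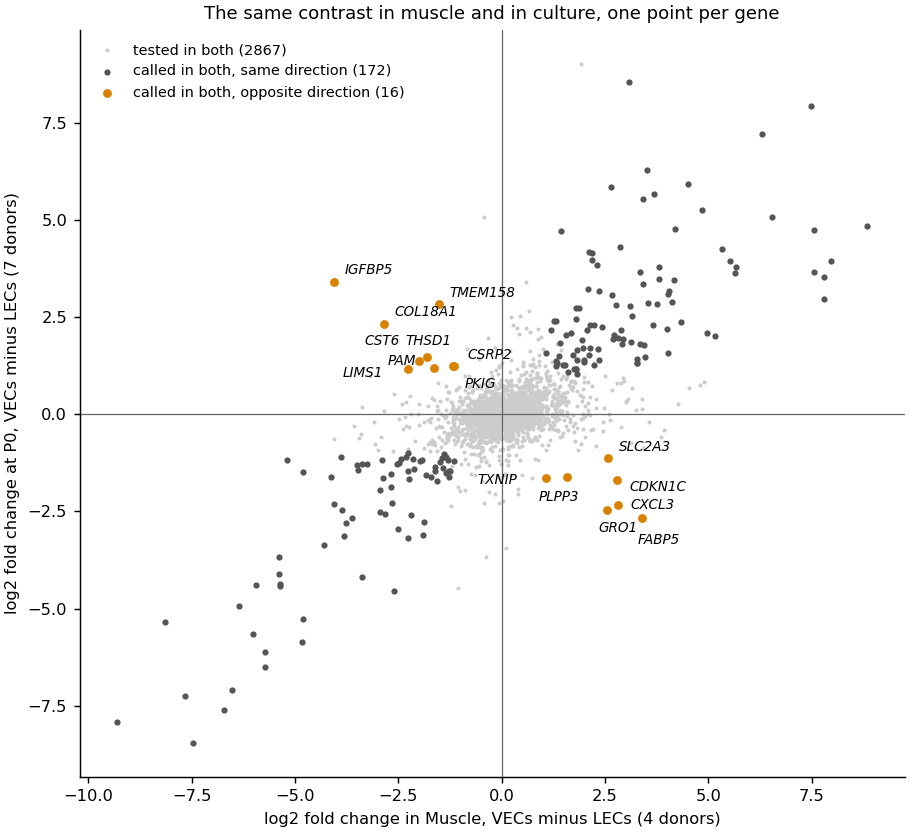
Log2 fold changes (VECs minus LECs) in Muscle (horizontal, 4 donors) and at P0 (vertical, 7 donors) of the 2867 genes tested in both, 1 point per gene. The 172 genes called in both in the same direction (dark) lie in the lower left and upper right, and the 16 genes called in opposite directions (orange, named) in the other corners.

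The 16 genes that changed sides were picked out after their values were seen. Higher in LECs at P0 and higher in VECs in Muscle were FABP5, CXCL3, GRO1, CDKN1C, PLPP3, SLC2A3 and TXNIP. The difference between the 2 contrasts was tested in the 3 donors with both types at both timepoints, where 253 of 5387 genes were called (4.7%), 120 with a more VEC-sided contrast at P0 (2.23%) and 133 with a more LEC-sided one (2.47%). That fit blocked on the donor over both timepoints and did not pair the types within a timepoint. Its p-values and SEs therefore do not measure the spread of the paired change among the 3 donors. The count of 253 rests on few donors and on the block: it was 413 without the donor block, and 168, 162 and 129 without donor 4, 7 and 8. Which side held more genes changed too, with 58 more VEC-sided and 110 more LEC-sided genes without donor 4, 84 and 78 without donor 7, and 135 and 118 with DESeq2. FABP5 averaged 8004 CPM in VECs and 668 CPM in LECs of Muscle in these donors, and 102 CPM in VECs and 1041 CPM in LECs at P0, a difference of contrasts of -6.99 ± 0.30 SE on the log2 scale (adjusted p = 1.08e-13). CXCL3 averaged 2622 and 479 CPM in the VECs and LECs of Muscle and 159.6 and 1222 CPM at P0 (-5.41 ± 0.58 SE, adjusted p = 0.00125). For both genes VECs lay above LECs in Muscle and below them at P0 in all 3 donors.

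GRO1, a chemokine gene of the same family as CXCL3, had a log2 fold change of -2.47 ± 0.22 SE at P0 and a difference of contrasts of -5.30 ± 0.77 SE, which was -7.19 without donor 4 and -4.50 without donor 7. Its Muscle log2 fold change of 2.56 was 4.09 without donor 4, and the call was lost without the cells of high UMI counts (log2FC 0.60). CDKN1C, a cyclin-dependent kinase inhibitor, PLPP3, a lipid phosphate phosphatase, SLC2A3, a glucose transporter, and TXNIP, which restrains glucose uptake, had differences of -4.68, -3.86, -3.14 and -3.22. On the other side, COL18A1, CSRP2, CST6, IGFBP5, LIMS1, PAM, PKIG, THSD1 and TMEM158 were higher in VECs at P0 and higher in LECs in Muscle. COL18A1 averaged 56.0 CPM in VECs and 389 CPM in LECs of Muscle, and 379 and 50.2 CPM at P0, a difference of 5.69 ± 0.45 SE (adjusted p = 3.74e-08). TMEM158, LIMS1, a focal adhesion adaptor, and THSD1 had differences of 5.24, 3.78 and 3.51, and PKIG, PAM, CST6 and CSRP2 of 2.56, 2.54, 2.42 and 2.05. IGFBP5, an IGF-binding protein, was the 1 of the 16 whose difference was not called (7.19 ± 1.59 SE, adjusted p = 0.0628). It was called without donor 7 (9.89), without the donor block (7.05) and with DESeq2 (8.57).

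FABP5, CXCL3, CDKN1C, PLPP3 and COL18A1 kept the calls of both contrasts and of the difference in each alternative run that tested them, and the other side changes were less firm. The Muscle call was lost for PKIG without donor 4, 8 or 10 (log2FC -0.92, -1.13 and -1.13) and for CSRP2 without donor 7, 8 or 10 (-1.21, -0.92 and -1.07). It was lost for IGFBP5 without donor 4 or 10 (-3.39 and -3.93), for TMEM158 without donor 7 (-1.21) and for TXNIP without donor 8 (0.89). DESeq2 did not call PKIG, CSRP2 or TMEM158 in Muscle (-1.14, -1.15 and -1.44), and without the donor block PKIG, TMEM158 and TXNIP were not called there (-0.54, -1.24 and 0.82). With no filter on low counts the Muscle calls of PKIG, CSRP2, IGFBP5 and TMEM158 were lost (-0.89, -0.92, -3.78 and -1.25), and without cells of high UMI counts that of TXNIP (0.95), with folds in the direction of the reported ones. The P0 call was lost for CST6 without donor 1, 2 or 8 (1.31, 1.37 and 1.22), without cells of high UMI counts or with equal numbers of cells (1.00 and 1.32), for SLC2A3 without donor 9 (-0.94) and for TXNIP without any one of donors 1, 4, 7, 8 and 9 (-1.74 to -1.48). LIMS1 and PAM fell under the fold limit at P0 with only the donors of 20 or more cells of both types (0.97 and 0.95). The difference itself was lost for CSRP2 without donor 7 or 8 (1.97 and 1.46) and for CST6 and THSD1 without donor 4 (2.71 and 2.49), and with thinned sums for CSRP2 and CST6 (1.42 and 2.44).

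Some genes of a single side changed their contrast as well. ANGPT2, not called at P0, was higher in the LECs of Muscle (log2FC -2.59 ± 0.38 SE, adjusted p = 1.78e-04), a difference of 3.92 ± 0.43 SE (adjusted p = 6.81e-06). F8, higher in LECs at P0, averaged 262 CPM ± 74.4 in VECs and 243 CPM ± 97.0 in LECs of Muscle (SD, n = 4), a difference of -4.03 ± 0.48 SE. GJA4, higher in VECs at P0, lay at 79.3, 165, 100.2 and 117 CPM in the VECs and 59.6, 440.2, 90.8 and 89.2 CPM in the LECs of Muscle of donors 4, 7, 8 and 10. VECs were thus higher in 3 of 4 donors and the LECs of donor 7 stood above all other sums (log2FC -0.43 ± 0.36 SE, not called). The difference of contrasts was 5.85 ± 0.83 SE, 4.23 without donor 7 and 10.37 without donor 8. ANGPT2 and F8 were named here after their values were seen.

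**Figure D5:**
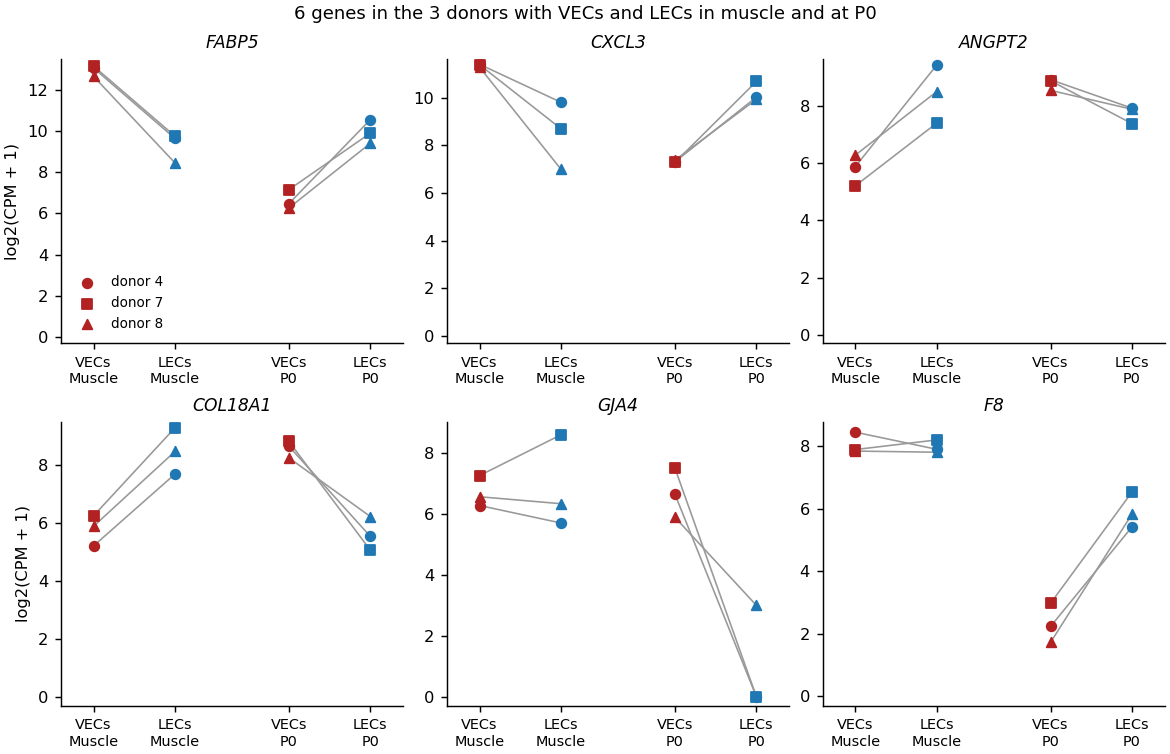
Levels of 6 genes as log2(CPM + 1) in VECs (red) and LECs (blue) of Muscle and of P0 in donors 4, 7 and 8, with a line joining the types of 1 donor. FABP5 and CXCL3 fall from VECs to LECs in Muscle and rise at P0, and COL18A1 and ANGPT2 do the reverse.

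The widest fitted differences rested on sums without a UMI. SELP (P-selectin), LIFR, a cytokine receptor, BIRC3, an inhibitor of apoptosis, CCRL2, a chemerin-binding receptor, and SMIM3 had 0 UMIs in the LECs of Muscle of the 3 donors and 189, 374, 150, 198 and 165 UMIs in the VECs. At P0 they had 4, 7, 52, 4 and 8 UMIs in LECs and 5, 35, 177, 21 and 61 in VECs. In the other direction, MALL and PTPRU, a receptor phosphatase, had 0 UMIs in the LECs of P0 in these donors, and 4 and 38 UMIs in the LECs of Muscle. B3GNT8, a glycosyltransferase, had 1 UMI in the VECs and 9 in the LECs of Muscle, and 78 and 12 at P0. The fitted values of these genes depend on the handling of zeros and bound no fold.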

How the data were processed

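The data are 3' droplet single-cell libraries of bovine muscle and muscle cultures. The values used are the deposited UMI counts of each barcode, unscaled, which the authors made with Cell Ranger 6.0.1 on genome build ARS-UCD1.2, per the labels, and the authors' table gives the donor and type of each cell that passed their filters. Of 22164 P0 barcodes demuxlet had called 39.4% doublets, which were left out; doublets within 1 donor cannot be found this way, and no other caller was run. No VEC or LEC barcode was shared by Muscle and P0. The authors' deposited fraction of mitochondrial UMIs is in percent. The matrices hold 21880 genes, and 68 symbols stand for several genes.

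Counts were summed per donor and type (at least 10 cells), scaled with TMM factors and filtered with filterByExpr. They were fitted in edgeR 4.0.16 (robust quasi-likelihood) with the donor as a block, since VECs and LECs of 1 number come from the same animal. Same-numbered sums deviated together with r of 0.028 to 0.176 at P0 and 0.059 to 0.122 in Muscle. The standard error is the absolute log2 fold change over the square root of F. P-values rest on the variation of the sums that the donor block leaves, which includes the counting and cell sampling error of small sums. Per-cell measures were compared with exact sign-flip tests over donors. Alternatives were DESeq2 1.42.0, RLE factors, no filter, no block, thinned sums, cells without high UMIs or FAP transcripts, other cell minimums, equal cell numbers and leaving out each donor. The scripts were tested on simulated counts.

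The types compared, the gene lists and the rules for named genes were chosen with earlier results of these data known. Named are the 12 genes farthest on each side with 1 direction in every donor, up to 5 called members per list and side, a fixed set of endothelial and type markers, and the 5 widest timepoint differences each way; others are list members or are said to have been chosen after their values were seen. A few genes that these rules name are not reported here. For a gene at 0 in 1 type the lowest fold was computed with 3 counts over that type's sums. Coordinates and sequences are not given, because the gene table used belongs to another assembly.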

Additional observations from a re-analysis of the deposited data

Results flagged for a closer look

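The 7 donors were checked for a single value far from the others, in the difference of VECs and LECs on the log2(CPM + 1) scale for the tested genes named above and in the per-cell measures. Of 150 such checks 17 stood out, where chance flags about 1 in 20. In donor 2 this was VEGFC at 1.39 against 2.37 to 2.97 in the other donors. In donor 4 this was MECOM at 3.72 against 5.65 to 6.44 in the other donors. In donor 6 this was CSRP2 at 7.95 against 0.20 to 1.61 in the other donors, PAM at 3.25 against 0.79 to 1.79, TAL1 at 3.89 against -2.03 to -0.30, TAP1 at 6.34 against 1.41 to 3.14, VLDLR at 7.22 against 0.99 to 2.07. In donor 7 this was ANGPTL4 at 1.45 against -1.91 to -0.85 in the other donors, CD93 at 8.91 against 4.03 to 5.13, GRO1 at -3.72 against -2.61 to -1.80, PKIG at 2.14 against 0.89 to 1.41. In donor 9 this was IGFBP3 at 7.75 against 2.94 to 4.17 in the other donors, MEOX2 at 4.25 against 0.84 to 2.22, MX1 at 2.29 against -0.46 to 0.25, PRND at 2.31 against 4.96 to 6.45, SOX17 at 4.07 against 6.43 to 7.03. The other flag was the mitochondrial share of VECs in donor 1, 1.23%, below the other donors. For CD93, CSRP2, IGFBP3, TAL1, TAP1 and VLDLR the donor that stood out had 0 UMIs of the gene in its LEC sum. For MECOM, PRND and SOX17 it was the reverse, since that donor held the 1 UMI in LECs and the other donors had 0. The part of these counts in the gaps was not tested.

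Of the 253 genes whose VEC to LEC contrast differed between P0 and Muscle, 39 are named above (edgeR's quasi-likelihood interaction test over 3 donors, Benjamini-Hochberg adjustment). The contrast was more LEC-sided at P0 for SELP by -11.69 on the log2 scale, LIFR by -10.81, BIRC3 by -9.98, CCRL2 by -9.89, SMIM3 by -9.10, FABP5 by -6.99, CXCL3 by -5.41, GRO1 by -5.30, CDKN1C by -4.68, F8 by -4.03, PLPP3 by -3.86, TXNIP by -3.22, SLC2A3 by -3.14, MX1 by -4.33, ID2 by -2.95, KLF4 by -2.76, TEK by -2.07, NR2F2 by -1.25, CAVIN2 by -1.11. It was more VEC-sided at P0 for MALL by 7.53, PTPRU by 7.40, GJA4 by 5.85, B3GNT8 by 5.71, COL18A1 by 5.69, TMEM158 by 5.24, ANGPT2 by 3.92, LIMS1 by 3.78, THSD1 by 3.51, PKIG by 2.56, PAM by 2.54, CST6 by 2.42, CSRP2 by 2.05, COL12A1 by 5.57, TIMP2 by 2.25, COL4A2 by 2.15, ID3 by 1.88, HES1 by 1.58, COL4A1 by 1.22, LAMA4 by 1.16. Leaving out 1 donor or another alternative ended the call for 20 of the 39. Of the 253 genes, 11 had 0 UMIs in 1 of the 4 groups of sums. Timepoint and library cannot be told apart in these differences.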

How the results depend on the processing

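The number of genes called at P0 stayed within 1.5 times of 520 with DESeq2 (527), RLE factors (522), no replicate block (552), without FAP-rich cells (566), without cells of high UMIs (506), with at least 20 or 5 cells (566 and 399) and without each donor (501 to 606). It was 1082 with no filter, where 14276 genes were tested, and 304 with thinned sums and 319 with equal cell numbers, where 3366 and 3494 genes were tested. In Muscle (558) it was 492 with DESeq2, 728 with no replicate block, 1021 with no filter, 242 with thinned sums and 507 to 546 without each donor. For the timepoint difference (253) it was 413 with no replicate block, 134 with thinned sums and 129 to 168 without each donor, and its split turned from 120 more VEC-sided and 133 more LEC-sided to 135 and 118 with DESeq2, 158 and 150 with no filter, 70 and 64 with thinned sums and 84 and 78 without donor 7 (58 and 110 without donor 4). The difference in UMIs per cell was 2591 to 4280 without each donor; 6 of the 7 values missed 0.05, where 6 donors allow no p under 0.0312. The difference in genes per cell passed in each case.

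Of 119 genes named above and called at P0, 18 lost their call in at least 1 alternative, all with the same sign: ANGPTL4, BIRC3, CCN1, CST6, CXCL8, ETS1, GATA2, HES1, IL6, ITGA5, JSP.1, LIMS1, LTBP1, PAM, PLAUR, SLC2A3, SOX7 and TXNIP. Removing the block ended the calls of HES1, ITGA5, JSP.1 and BIRC3 at P0. In Muscle 19 of 93 and for the timepoint difference 20 of 39 were lost in some alternative; the causes were not tested. A minimum of 30 cells left 1 donor at P0, and leaving out cells of high UMIs left no donor for the timepoint difference, so neither gave a value. LEC sums of 10 to 33 cells limit the depth at P0, since 1 UMI was worth up to 12.4 CPM there. The LEC sums of Muscle were smaller still, with 56121 to 67317 UMIs from 11 to 13 cells, so levels in them are coarser.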
